A study of Homo sapiens with 6 samples.

Results

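The GADD45 genes GADD45A, GADD45B and GADD45G and the stress kinase genes MAP3K4, MAPK14 and MAPK8 were taken by symbol from the gene tables of an RNA-seq experiment, 6 genes out of 45372 listed gene IDs. All 6 passed the filter on low values and so lay among the 13680 genes tested. The libraries came from human umbilical vein endothelial cells (HUVECs, primary cells from the lining of the umbilical vein), passaged and grown in endothelial medium and labelled wild type. One group of 3 libraries had been transfected with 50 nM of a miR-409-3p mimic, a synthetic double-stranded copy of the microRNA, and the other group of 3 with a non-specific control RNA at the same dose. Both groups received the same lipid reagent and carry a 48-hour time label, and the titles of both also call the cells not treated without saying of what. By its title, the series concerns miR-409-3p, the antiproliferative gene BTG2 and vessel growth and wound healing in obese mice. The 6 genes were put together with the mimic-to-control difference of GADD45A already known, so the set was in part chosen by its mimic and control TPM values, and every mimic-to-control value of these 6 genes is given as a description, without a test.

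GADD45 proteins are small acidic proteins whose genes are switched on by growth arrest, DNA damage and other stress. They bind and open MAP3K4 (also called MTK1), a kinase kinase kinase, which then signals through the MAP2K kinases to the p38 kinases, of which MAPK14 is p38 alpha, and to the JNK kinases, of which MAPK8 is JNK1. GADD45 proteins also bind the cell cycle and repair proteins CDK1, CDKN1A and PCNA in the nucleus, and GADD45A is a classic target gene of p53. In endothelium, p38 and JNK are activated by inflammatory cytokines, osmotic and oxidative stress.

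The microRNA supplied and its passenger arm are shown because the first question about any transcript in mimic-treated cells is whether it can pair with the seed. Both sequences are from RefSeq (GRCh38.p14), encoded on the plus strand of chromosome 14, with the seed, bases 2 to 8, in capitals.
hsa-miR-409-3p: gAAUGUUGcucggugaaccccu
hsa-miR-409-5p: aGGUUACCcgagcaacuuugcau

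The letters that pair with the miR-409-3p seed are CAACATT in DNA, and the shortest match searched, the 6mer AACATT, is the last 6 letters of it, so each CAACATT is also a 6mer. Only the transcript strand was searched. In the longest annotated 3′ UTR in GENCODE 29, which measured 564 nt for GADD45A, 658 nt for GADD45B and 476 nt for GADD45G, the GADD45 genes held 0 copies of the 6mer, and 0 in the rest of those transcripts. The kinase genes each held a copy somewhere in the transcript. The 515 nt 3′ UTR of MAP3K4 held 0 copies, and the rest of the transcript held 1, a full CAACATT. The 2789 nt 3′ UTR of MAPK14 held 2 copies of the 6mer, neither a full CAACATT, and the rest of the transcript held 2, of which 1 was a full CAACATT. The 4465 nt 3′ UTR of MAPK8 held 3, of which 1 was a full CAACATT, and the rest of the transcript held 0. Of 11858 tested genes searched the same way, 45.4% held the 6mer and 13.3% held CAACATT in the 3′ UTR, without matching for UTR length. The site of the passenger arm, GGTAACC, was in none of the 6 UTRs and in 4.6% of all. The matches in MAPK14 (plus strand of chromosome 6) and MAPK8 (plus strand of chromosome 10) are printed with the paired letters in capitals. They come from the GENCODE 29 transcripts on GRCh38 and are the only 3′ UTR matches in the transcripts searched.
MAPK14, chr6:36109891-36109918: tcttcttggcagcttAACATTgacttct
MAPK14, chr6:36110868-36110895: cttaatactactcctAACATTtagaaaa
MAPK8, chr10:48437335-48437362: cctttaagcatcttaAACATTttttttt
MAPK8, chr10:48437366-48437393: agagaagttacaaatAACATTtctatca
MAPK8, chr10:48438060-48438087: aggcattcgcctgcaCAACATTttgagg

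Values are TPM, a per-length measure with equal sums across libraries, so levels can be compared between genes. The depth implied by the size of single-read steps was 29.8 to 35.9 M assigned reads per library. The cells carried their endothelial markers, with PECAM1 at 1092 TPM in mimic and 1048 TPM in control cells, CDH5 at 816 and 831 TPM, and VWF at 939 and 899 TPM (means, n = 3 each). The summed level of 10 endothelial markers was 4679 to 4721 TPM in mimic libraries and 4390 to 4675 TPM in control libraries, and that of 4 lymphatic endothelial markers 56.5 to 56.9 TPM in mimic and 51.1 to 54.2 TPM in control libraries, with PDPN at 0. These sums did not overlap between groups, and their part in the results was not tested. Each of the 10 endothelial markers overlapped between groups on its own, while LYVE1 and FLT4 of the lymphatic list did not. Of all tested genes, 5.16% lay higher in mimic cells without overlap. Summed markers overlapped between groups for 5 smooth muscle genes (10.4 to 12.0 TPM in mimic and 9.6 to 13.3 TPM in control), 5 fibroblast genes (10.4 to 11.3 and 9.27 to 11.8 TPM), 5 leukocyte genes (0.0638 to 0.522 and 0.214 to 0.425 TPM, with PTPRC, CD3E and ITGAM at 0) and 5 epithelial genes (261 to 327 and 307 to 318 TPM). The epithelial sum was mostly KRT18, at 264 TPM in mimic and 281 TPM in control cells. EPCAM was at 2.09 and 2.14 TPM and CDH1 at 0.00671 and 0 TPM (means, n = 3 each). None of the marker genes passed the test. In RNA from whole cultures, fewer cells with a transcript and less transcript per cell cannot be told apart.

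GADD45A (ENSG00000116717, chromosome 1, 67685061 to 67688338, plus strand, GRCh38) was the most abundant of the 6 genes. It measured 282.1, 275.8 and 265.9 TPM in the mimic libraries and 193.6, 194.4 and 194.1 TPM in the control libraries. Every mimic library lay above every control library, as in 5.16% of tested genes, with 71.5 TPM between the lowest mimic and the highest control value. The group means were 274.6 ± 8.18 TPM in mimic cells and 194.0 ± 0.442 TPM in control cells (SD, n = 3 each), a ratio of 1.42, and the log2 fold change was 0.50 (SE 0.05).

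The 3 control values of GADD45A were closer together than counting reads allows on average. Their coefficient of variation was 0.228%, while about 3276 to 3477 estimated reads per control library give a counting error of 1.73%, and only 0.0658% of tested genes had a smaller control variation. In the mimic libraries the variation was 2.98% against a counting error of 1.46% (4151 to 5080 estimated reads).

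GADD45B (ENSG00000099860, chromosome 19, 2476122 to 2478259, plus strand), which is known to be induced through NF-kB and TGF-beta and whose protein can also bind and block the JNK kinase MAP2K7, was less abundant. It measured 32.1, 27.0 and 35.2 TPM in the mimic libraries and 24.5, 28.0 and 27.6 TPM in the control libraries. The groups overlapped, because mimic library 2 lay below control libraries 2 and 3. The means were 31.4 ± 4.14 TPM in mimic and 26.7 ± 1.92 TPM in control cells (SD, n = 3 each), and the log2 fold change was 0.22 (SE 0.10).

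GADD45G (ENSG00000130222, chromosome 9, 89605013 to 89606555, plus strand), known as a cytokine-responsive member of the family, was near the low end of the tested genes. It measured 4.55, 3.66 and 4.40 TPM in the mimic libraries and 3.01, 3.99 and 2.18 TPM in the control libraries, again with overlapping groups. These levels stand for an estimated 49, 43 and 44 reads in mimic libraries and 33, 43 and 25 reads in control libraries. The means were 4.20 ± 0.48 TPM in mimic and 3.06 ± 0.904 TPM in control cells (SD, n = 3 each). The log2 fold change was 0.38 (SE 0.17), and counting error alone was 14.9% per mimic library and 17.2% per control library.

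**Figure D1:**
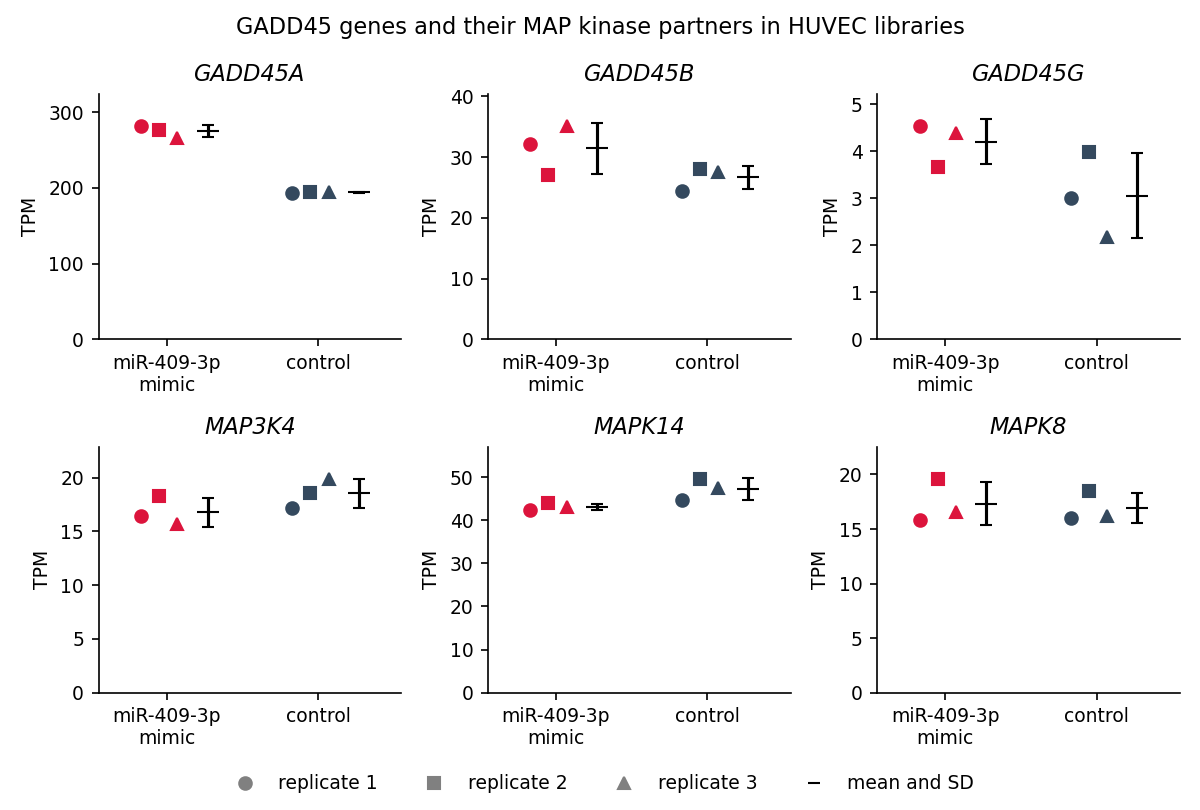
TPM of the 3 GADD45 genes (top) and the 3 kinase genes (bottom) in each library, with miR-409-3p mimic libraries in red on the left of each panel and control libraries in dark blue on the right, and the group mean and SD (n = 3) as a bar beside the points. GADD45A has 3 mimic values from 265.9 to 282.1 TPM and 3 control values near 194 TPM, MAPK14 has 3 mimic values just below the control values, and the groups overlap in the other panels.

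The order of the 3 GADD45 genes was the same in all 6 libraries, with GADD45A highest, GADD45B next and GADD45G lowest, and neighbours in that order did not overlap. Among all 6 genes, MAPK14 lay between GADD45A and GADD45B, and MAP3K4 and MAPK8 lay between GADD45B and GADD45G without being apart from each other. GADD45A made up 88.5%, 90.0% and 87.0% of the summed GADD45 level in mimic libraries and 87.6%, 85.9% and 86.7% in control libraries. These shares overlapped between the groups, since mimic library 3 lay below control library 1. The sum itself was 305 to 319 TPM in mimic libraries and 221 to 226 TPM in control libraries. Relative to MAP3K4, the GADD45 sum was 19.4, 16.7 and 19.5 times as high in mimic libraries and 12.9, 12.2 and 11.3 times as high in control libraries. Since GADD45A made up most of the sum, the sum and this ratio mostly restate the GADD45A values. They are mRNA levels and do not give the amounts of the proteins.

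MAP3K4 (ENSG00000085511, chromosome 6, 160991727 to 161117385, plus strand) measured 16.4, 18.3 and 15.7 TPM in the mimic libraries and 17.2, 18.6 and 19.9 TPM in the control libraries. The groups overlapped, with means of 16.8 ± 1.37 TPM in mimic and 18.6 ± 1.35 TPM in control cells (SD, n = 3 each) and a log2 fold change of -0.14 (SE 0.08). An annotated antisense gene, AL139393.2, overlaps MAP3K4 exons on the other strand and had 1.17 to 2.35 TPM in mimic libraries and 1.21 to 2.34 TPM in control libraries. Whether counting used strand is not given in the sources used here, so MAP3K4 and AL139393.2 may share reads.

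MAPK14 (ENSG00000112062, chromosome 6, 36027677 to 36111236, plus strand) was the most abundant of the 3 kinase genes, at 42.4, 43.9 and 43.0 TPM in the mimic libraries and 44.6, 49.6 and 47.4 TPM in the control libraries. All mimic values lay below all control values, but by a gap of only 0.642 TPM. The means were 43.1 ± 0.744 TPM in mimic and 47.2 ± 2.54 TPM in control cells (SD, n = 3 each), with a log2 fold change of -0.13 (SE 0.06). Groups that do not overlap were common in these data, at 15.7% of tested genes in either direction and 10.5% with mimic lower.

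MAPK8 (ENSG00000107643, chromosome 10, 48306639 to 48439360, plus strand), the only one of the 6 genes with a full CAACATT in the 3′ UTR searched, measured 15.8, 19.6 and 16.6 TPM in the mimic libraries and 16.0, 18.5 and 16.2 TPM in the control libraries. The groups overlapped along nearly their whole range, and the log2 fold change was 0.03 (SE 0.09). MAPK8 and MAP3K4 were close in level, at means of 17.3 ± 2.02 and 16.8 ± 1.37 TPM in mimic cells and 16.9 ± 1.40 and 18.6 ± 1.35 TPM in control cells (SD, n = 3 each), and their values overlapped in each group.

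Mimic library 2, the deepest of the 6, had the highest value of all 3 kinase genes and the lowest value of GADD45B and GADD45G within the mimic group. Control library 2 had the highest control value of MAPK14 and MAPK8 and also of GADD45B and GADD45G. As a description over 6 libraries, the Pearson r of deviations from the group means was taken for the 15 pairs. Few free values remain once the group means are removed, and no r was tested. It ran from -0.55 (GADD45G with MAP3K4) to 0.73 (MAPK14 with MAPK8). The other kinase pairs were at 0.57 (MAP3K4 with MAPK14) and 0.58 (MAP3K4 with MAPK8). Within the GADD45 family the r was -0.37 for GADD45A with GADD45B, 0.03 for GADD45A with GADD45G and 0.34 for GADD45B with GADD45G.

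Across all genes, limma on log2(TPM + 1) with Benjamini-Hochberg adjustment over 13680 genes put 18 genes higher (0.132%) and 41 genes lower (0.300%) in mimic cells at an adjusted p under 0.05, 0.431% in either direction. With quantile scaling the split was 34 higher and 42 lower, and leaving out any 1 library gave 6 to 22 higher and 6 to 27 lower. In order of fold change, GADD45A ranked 171 of 13680 from the highest. GADD45G ranked 298, GADD45B 672, MAPK8 4271, MAPK14 11094 and MAP3K4 11296. The median log2 fold change of the 6 genes was 0.13, with 4 above and 2 below 0. This is a description of a set chosen in part by its values, not a comparison with all tested genes, whose median was -0.02.

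The fold changes of the 6 genes were recomputed with 1 library left out, with another pseudocount and with another scaling. Another filter or prior, or a replicate block, cannot move them in this balanced design, although GADD45G is lost with a filter of 5 TPM. GADD45A stayed between 0.48 and 0.52. GADD45B ran from 0.14 without mimic library 3 to 0.32 without mimic library 2. GADD45G ran from 0.20 with a pseudocount of 5 TPM to 0.54 without control library 2. MAP3K4 stayed between -0.20 and -0.09 and MAPK14 between -0.17 and -0.09. MAPK8 changed sign, at -0.06 without mimic library 2 and -0.01 without control library 1.

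**Figure D2:**
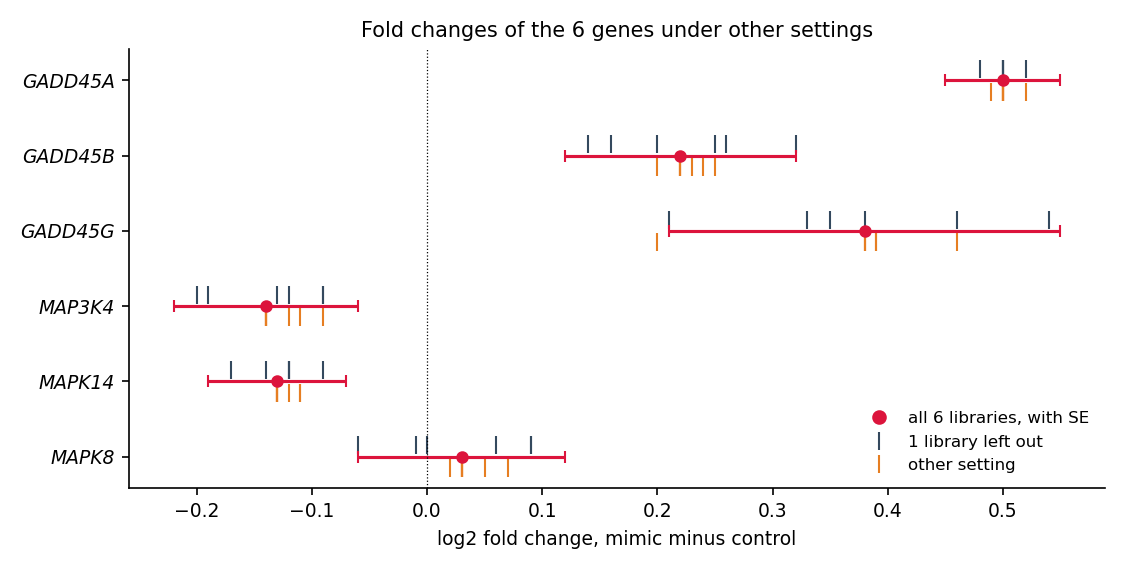
Log2 fold change (mimic minus control, horizontal axis) of each of the 6 genes with its SE over all 6 libraries (red point and bar), with 1 library left out (dark ticks) and under other settings (orange ticks). The ticks of GADD45A stay between 0.48 and 0.52, those of GADD45B and GADD45G spread over a wider range above 0, those of MAP3K4 and MAPK14 stay below 0, and those of MAPK8 fall on both sides of 0.

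The genes whose pattern over the 6 libraries was most like that of GADD45A, by Pearson r of log2(TPM + 1) among 8927 genes with a symbol and a mean of at least 10 TPM, were MYLIP (r = 0.9903), ZFP36 (r = 0.9886), SNRK (r = 0.9881), NEDD9 (r = 0.9875) and DUSP5 (r = 0.9863). With 6 libraries in 2 groups, such an r mostly records a difference between the groups, and 98 genes had r above 0.9. MYLIP, which encodes a ubiquitin ligase for the LDL receptor, measured 40.2, 35.4 and 35.9 TPM in mimic libraries and 23.3, 23.9 and 24.4 TPM in control libraries. NEDD9, an adhesion scaffold gene, measured 40.2, 42.2 and 37.1 TPM in mimic and 26.4, 27.6 and 27.6 TPM in control libraries. DUSP5, which encodes a nuclear phosphatase of ERK, measured 27.7, 25.9 and 24.8 TPM in mimic and 19.8, 20.2 and 20.5 TPM in control libraries. None of these overlapped between the groups, while 5.16% of all tested genes lay higher in mimic cells without overlap. They were picked for their likeness to GADD45A, so the lack of overlap follows from the choice.

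GADD45B had a different set of nearest genes, with PEPD (r = 0.9933), SMAP1 (r = 0.9914), BCAM (r = 0.9869) and RNF166 (r = 0.9721) among them. Their fold changes were small, with log2 values from 0.07 to 0.10, and the mimic and control values of each overlapped. PEPD, a dipeptidase gene, measured 44.6, 41.5 and 45.5 TPM in mimic libraries and 40.3, 42.3 and 42.4 TPM in control libraries. Like GADD45B it was lowest in mimic library 2 within its group and in control library 1 within the other. SNRK, NEDD9, SMAP1 and RNF166 overlap annotated genes on the opposite strand, so their reads may be shared.

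**Figure D3:**
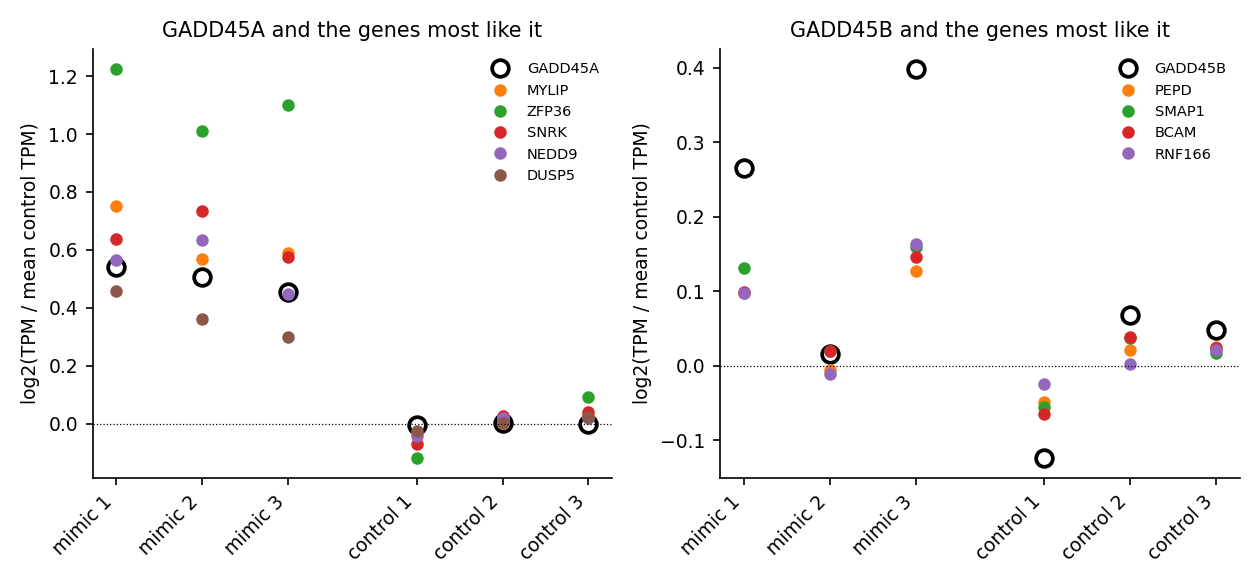
Log2 ratio of each library's TPM to the mean control TPM (vertical axis) for GADD45A (left, open black circles) and GADD45B (right, open black circles) with the genes of highest Pearson r named in the text (coloured points, 5 on the left and 4 on the right), mimic libraries left of control libraries. Around GADD45A all mimic points lie above all control points of the same gene, while around GADD45B the points of mimic library 2 lie among the control points. The coloured genes were picked for their likeness to the gene in black.

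The rest of the pathway was followed in 7 lists with 125 genes in all, of which 119 were tested. By limma with Benjamini-Hochberg adjustment over all tested genes, 1 rose (EGR1), 1 fell (BTG2) and 117 did not pass. Of all tested genes, 0.132% rose and 0.300% fell after adjustment. Before adjustment, p was under 0.05 for 8 genes upward and 14 downward, against 3.05% upward and 7.64% downward of all tested genes. The median log2 fold change of the 119 genes was -0.02, as it was for all tested genes.

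Among 27 tested kinases and scaffolds of the p38 and JNK cascade, 0 passed limma in either direction. Before adjustment, p was under 0.05 for 0 upward and 1 downward, against 3.05% and 7.64% of all tested genes. The median was -0.003 and the range -0.18 to 0.13. MAP2K4, a kinase of both JNK and p38, measured 19.5, 21.6 and 19.1 TPM in mimic libraries and 23.7, 22.4 and 22.4 TPM in control libraries, without overlap (log2 fold change -0.18, SE 0.07, limma adjusted p = 0.382). In log2 fold change MAP3K1 was at 0.13 (SE 0.08) and MAP3K12 at -0.12 (SE 0.07), and both overlap annotated genes on the opposite strand.

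The other p38 and JNK genes showed how MAPK14 and MAPK8 rank among their paralogs. MAPK11 (p38 beta) measured 33.1 ± 2.19 TPM in mimic and 31.3 ± 2.82 TPM in control cells, MAPK12 (p38 gamma) 17.0 ± 2.41 and 17.0 ± 0.605 TPM, and MAPK13 (p38 delta) 4.28 ± 0.758 and 4.10 ± 0.750 TPM (SD, n = 3 each). MAPK14 was thus the highest of the p38 genes in each group. MAPK9 (JNK2) measured 21.0 ± 0.976 TPM in mimic and 20.3 ± 1.04 TPM in control cells, and MAPK10 (JNK3) stayed under the filter at 0.0367 and 0.0431 TPM. MAPK9 was above the MAPK8 means of 17.3 and 16.9 TPM. Annotated exons of MAPK12 overlap those of HDAC10 on the same strand, so its reads are uncertain. Those of MAPK10 overlap annotated genes on the opposite strand.

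Of the 18 effectors of p38 and JNK, 0 passed limma, with a median of -0.02. Before adjustment, p was under 0.05 for 1 upward and 0 downward, against 3.05% and 7.64% of all tested genes. MEF2C, a p38-responsive transcription factor, measured 31.9, 35.3 and 31.2 TPM in mimic libraries and 27.3, 27.8 and 29.1 TPM in control libraries, without overlap (log2 fold change 0.22, SE 0.07, limma adjusted p = 0.252). It is overlapped by antisense genes. The log2 fold change of ATF2, a factor phosphorylated by both kinases, was -0.14 (SE 0.06), and that of MEF2D 0.10 (SE 0.06). Exons of ATF2 overlap annotated genes on both strands. JUN, the namesake substrate of JNK, measured 210 ± 20.2 TPM in mimic and 199 ± 20.9 TPM in control cells, and MAPKAPK2, the kinase directly below p38, 73.7 ± 2.89 and 73.2 ± 4.80 TPM (SD, n = 3 each).

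Of 8 tested phosphatases that act on p38 and JNK, 0 passed limma, with a median of -0.07. Before adjustment, p was under 0.05 for 1 upward and 2 downward, against 3.05% and 7.64% of all tested genes. DUSP16, which prefers JNK, came closest. It measured 9.40, 9.32 and 10.7 TPM in mimic libraries and 12.9, 14.0 and 14.2 TPM in control libraries, without overlap (log2 fold change -0.45, SE 0.08, limma adjusted p = 0.0608). PPM1D, a p53-induced phosphatase of p38, measured 18.2, 19.3 and 16.3 TPM in mimic and 21.3, 22.9 and 21.9 TPM in control libraries (log2 fold change -0.29, SE 0.08). DUSP8 was low, at 1.28 ± 0.307 TPM in mimic and 1.74 ± 0.0985 TPM in control cells (SD, n = 3 each; log2 fold change -0.27, SE 0.16). The gene upward before adjustment was DUSP1, which lay outside the naming rule. It measured 59.8 ± 3.78 TPM in mimic and 51.6 ± 4.86 TPM in control cells (SD, n = 3 each; log2 fold change 0.21, SE 0.08).

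Of 14 nuclear partners of GADD45 proteins, 0 passed limma, with a median of -0.01. Before adjustment, p was under 0.05 for 0 upward and 1 downward, against 3.05% and 7.64% of all tested genes. PCNA measured 392 ± 16.1 TPM in mimic and 389 ± 14.7 TPM in control cells, CDK1 115 ± 8.05 and 116 ± 4.61 TPM, and CCNB1 223 ± 4.55 and 227 ± 11.4 TPM (SD, n = 3 each). ING1, a chromatin reader that brings GADD45A to DNA, was at -0.32 (SE 0.11) in log2 fold change, CDKN1A at -0.21 (SE 0.09) and the demethylase TET1 at 0.14 (SE 0.16). ING1 and CDKN1A overlap annotated genes on the opposite strand.

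Among 22 tested genes reported to regulate GADD45 genes or their mRNA, 1 rose, 0 fell and 21 did not pass, with a median of -0.01. Of all tested genes, 0.132% rose and 0.300% fell. Before adjustment, p was under 0.05 for 5 upward and 1 downward, against 3.05% and 7.64% of all tested genes. EGR1, an immediate early transcription factor reported to activate GADD45A, measured 20.2, 18.3 and 24.0 TPM in mimic libraries and 9.31, 10.4 and 11.6 TPM in control libraries, without overlap. The limma log2 fold change was 0.93 (SE 0.11, Benjamini-Hochberg adjusted p = 0.0143). The adjusted p of EGR1 was 0.0629 without mimic library 1, 0.0823 without control library 1, 0.0699 without control library 2, 0.147 when low genes were kept and 0.0524 under an untrended prior. ATF3, a stress-induced factor, measured 4.90, 5.46 and 6.03 TPM in mimic and 3.29, 3.52 and 3.89 TPM in control libraries (log2 fold change 0.50, SE 0.11, limma adjusted p = 0.101). ZNF350 (ZBRK1), reported as a repressor of GADD45A, had a log2 fold change of 0.41 (SE 0.11, limma adjusted p = 0.163).

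FOXO1 lay outside the naming rule and was chosen after its values were seen. FOXO1, a transcription factor reported to drive GADD45A, measured 70.7, 73.9 and 70.1 TPM in mimic and 53.7, 54.7 and 59.5 TPM in control libraries, without overlap (log2 fold change 0.35, SE 0.06, limma adjusted p = 0.0525). Exons of FOXO1 overlap an annotated noncoding gene on the same strand, so its reads may be shared.

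Of the 6 genes in the list of other growth arrest and DNA damage genes, 0 passed limma. Before adjustment, p was under 0.05 for 1 upward and 0 downward, against 3.05% and 7.64% of all tested genes. PPP1R15A (GADD34), which restores translation after stress, measured 132, 127 and 126 TPM in mimic libraries and 107, 111 and 105 TPM in control libraries, without overlap (log2 fold change 0.26, SE 0.05, limma adjusted p = 0.0791). In log2 fold change PPP1R15B was at -0.08 (SE 0.07) and DDIT4L at 0.17 (SE 0.16). DDIT3 (GADD153) measured 21.1 ± 1.10 TPM in mimic and 22.1 ± 1.82 TPM in control cells (SD, n = 3 each), with overlapping groups. Exons of DDIT3 overlap annotated genes on both strands and those of DDIT4L on the opposite strand, so their reads may be shared.

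Of the 24 other p53 targets, 0 rose, BTG2 fell and 23 did not pass by limma. Their fold changes ran from -0.63 to 0.11 on the log2 scale, 8 above 0 and 16 below, with a median of -0.07, while 5942 of all tested genes lay above 0 and 7738 below. Before adjustment, p was under 0.05 for 0 upward and 9 downward, against 3.05% and 7.64% of all tested genes. BTG2 measured 53.6, 55.6 and 45.7 TPM in mimic libraries and 81.0, 78.9 and 80.0 TPM in control libraries (limma log2 fold change -0.63, SE 0.08, Benjamini-Hochberg adjusted p = 0.0143), and its adjusted p rose above 0.05 without mimic library 1 (0.0582) and without control library 1, 2 or 3 (0.0823, 0.0699 and 0.0785). The adjusted p of BTG2 was 0.12 when low genes were kept, 0.055 under an untrended prior and 0.0569 with a replicate block. SESN2 was at -0.56 (SE 0.11) and PLK3 at -0.49 (SE 0.11) in log2 fold change, and neither passed. Exons of PLK3 overlap an annotated gene on the opposite strand.

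**Figure D4:**
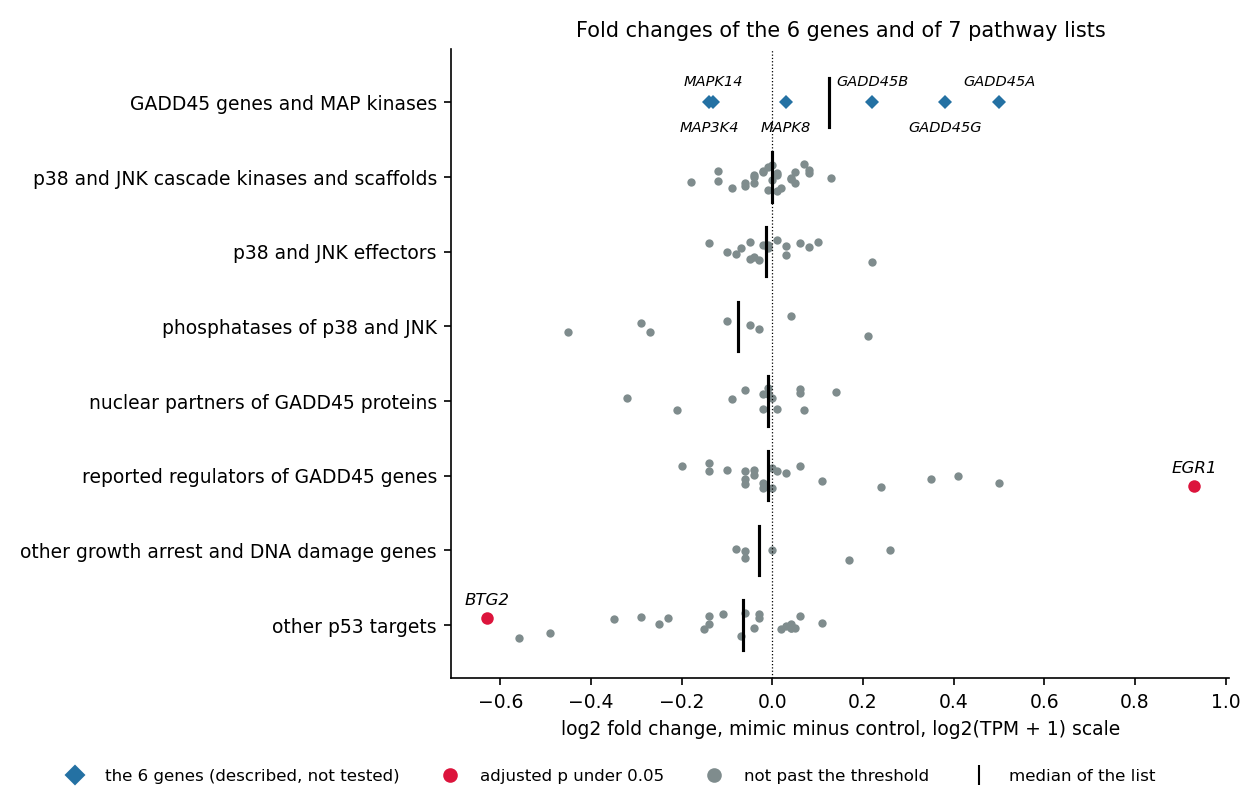
Log2 fold change (mimic minus control, horizontal axis) of the 6 genes (blue diamonds) and of every tested gene in 7 pathway lists (circles, red where the limma adjusted p is under 0.05), with the list median as a vertical bar. EGR1 at 0.93 and BTG2 at -0.63 are the 2 list genes past the threshold, and the p38 and JNK cascade lies between -0.18 and 0.13.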

How the data were processed

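The authors deposited TPM values for 45372 Ensembl gene IDs in each library. Per the submitters' processing notes, hg38 and GRCh38.p13 were the genome builds named. Reads were single, of 75 cycles, from mRNA-enriched libraries, per the labels' protocols, and 4 technical replicates went into each RNA sample, per the series design. No aligner, counter, annotation, strand setting or read filter is stated in the sources used here. The labels call the replicates biological, without naming separate cultures or donors, so p-values measure the spread between these libraries.

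Symbols came from a table holding 45102 of the IDs, and positions and transcripts from GENCODE 29. Genes that reached 1 TPM in 3 or more libraries entered a limma fit (version 3.58.1, R 4.3.3, trended prior, group only) on log2(TPM + 1), adjusted by Benjamini-Hochberg with a threshold of 0.05, after a check on simulated data. The log2(TPM + 1) scale understates changes of low genes. Reads were estimated as TPM times exon length over the value of 1 read, taken as the commonest product among low genes. Estimates carry no molecular identifiers, so counting errors cover counting only.

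The 6 genes, the lists and the tests were chosen with earlier results of these data known. Named genes were the 6, every list gene past the threshold, the 3 largest fold changes of each list, and the 5 genes most like GADD45A and GADD45B. Results of a few of these genes are not reported here. Kinase paralogs, JUN, MAPKAPK2, PCNA, CDK1, CCNB1 and DDIT3 were added for their roles. Python 3.11.15, numpy 2.4.6, pandas 2.3.3 and matplotlib 3.10.9 were used.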

Additional observations from a re-analysis of the deposited data

How the results depend on the processing

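Over all genes, 18 rose and 41 fell, and in the pathway lists 1 and 1. These counts became 6 and 5, and 0 and 0, with no filter on low genes, 36 and 79, and 2 and 3, with a filter of 5 TPM, and 10 and 10, and 0 and 0, with an untrended prior. Scaling by median of ratios gave 33 rises and quantile scaling 34, with 2 in the lists under each. Without 1 library, rises spanned 6 to 22 and falls 6 to 27, and in the lists 0 to 1 and 0 to 2. A replicate block gave 9 rises and 5 falls, with 1 and 0 in the lists, where BTG2 had an adjusted p of 0.0569. Correlations of deviations from the group means were 0.031, -0.087 and -0.112 between libraries of the same number. Between libraries of different numbers they ran from -0.031 to 0.114. These values showed no sign of pairing by replicate number, but whether the libraries were paired cannot be told from them. By construction of the balanced design, the fold changes of the 6 genes are the same with the replicate block, at 0.50 for GADD45A, 0.22 for GADD45B, 0.38 for GADD45G, -0.14 for MAP3K4, -0.13 for MAPK14 and 0.03 for MAPK8. The cause of the moved counts was not tested. GADD45G had the fewest estimated reads of the 6 genes, 25 to 49 per library.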
